A study of Mus musculus with 15 samples.

Results

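The 10 genes described here serve lipid synthesis in the sebaceous gland: Mc5r, Fasn, Scd1, Scd3, Elovl3, Far2, Awat1, Awat2, Dgat2 and Soat1. They were found by matching the Ensembl identifiers of the count table to mouse symbols. All 10 were present among its 53700 gene rows, and all 10 passed the filter on low counts that left 22529 genes for testing. The rule that names them uses no measured value, but the genes were chosen with earlier results of these data known.

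Whole dorsal skin of male SKH-1 mice, a hairless strain with intact immunity, was analysed by RNA sequencing 24 h after topical exposure. The mice of the SNX-5422+PAO group received phenylarsine oxide (PAO), a trivalent arsenical, at 100 µg per mouse (25 µg/cm2), and SNX-5422, a prodrug of an inhibitor of the chaperone HSP90, at 20 mg/kg on the injured area 15 min later. The PAO group received the arsenical alone. In the SNX-5422+CEES group the same dose of SNX-5422 was given 15 min after CEES (2-chloroethyl ethyl sulfide, a monofunctional analog of sulfur mustard) at 2 mg per mouse (500 µg/cm2), and the CEES group received that agent alone. Control mice received the ethanol vehicle. Each group had 3 libraries, and a group given only SNX-5422 was not analysed here. Whether the 3 libraries of a group are 3 animals is not stated in the labels, so the p-values reflect only sample-to-sample spread, part of which may be technical.

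Sebaceous glands are holocrine: sebocytes fill with lipid droplets as they mature and then burst to release sebum. Fatty acids made by the fatty acid synthase Fasn are desaturated by Scd1 and Scd3, lengthened by elongases such as Elovl3, and reduced to fatty alcohols by Far2. The wax synthases Awat1 and Awat2 join these alcohols to fatty acids, Dgat2 makes triacylglycerol, and Soat1 makes cholesteryl esters. Mc5r is the melanocortin receptor that sebum output depends on in mice.

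The libraries held 16838000 to 28887000 counts on genes (median 20512000, rounded to 5 digits). Counts per gene ran from 30 to 207 for Awat2, the lowest of the 10, and from 9690 to 49685 for Scd1, the highest. Keratinocyte markers were abundant as the tissue label requires, with Krt5, a keratin of basal keratinocytes, at 3116 ± 369 CPM in control libraries (counts scaled to TMM-adjusted library size; SD, n = 3). Skeletal muscle and pancreas markers were also present: 10 pancreas genes together held 0.00288 to 0.0160% of gene counts in SNX-5422+CEES libraries and 0.00104 to 0.00157% in CEES libraries, against 0.0938 to 0.304% in control libraries. The CEES and SNX-5422+CEES libraries have library codes 13 to 18, while codes 1 to 9 belong to the rest, so a difference between library sets and an effect of CEES cannot be told apart.

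Some libraries stood apart in these genes. CEES 2 was the lowest of its group for 10 of 10 genes and for 12 of 12 other genes of sebocytes, and SNX-5422+PAO 1 was the highest of its group for 10 of 10. SNX-5422+PAO 2 and SNX-5422+CEES 2 were the lowest of their groups for 9 genes each, and SNX-5422+CEES 1 was the highest for 9.

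Promoter windows from RefSeq (GRCm38.p6, 250 bases before to 50 bases after an annotated start) were used for 6 of the 10 genes, in 7 windows. Mc5r was left out when windows were picked, so this count does not show whether RefSeq has a window for it. The reads were aligned to another build, GRCm39, so these windows carry no read data. The 4 shown belong to genes whose levels moved differently between groups: Awat1, the gene called higher after CEES; Far2 and Fasn, which fell after PAO; and Soat1, which was not called after PAO. Capitals mark the CCAAT box and the GC box, whose letters are GGGCGG, or their reverse complements where they lie on the opposite strand. Each run is written 5′ to 3′ along the gene's strand.
Awat1, chrX:100571997-100572296, plus strand: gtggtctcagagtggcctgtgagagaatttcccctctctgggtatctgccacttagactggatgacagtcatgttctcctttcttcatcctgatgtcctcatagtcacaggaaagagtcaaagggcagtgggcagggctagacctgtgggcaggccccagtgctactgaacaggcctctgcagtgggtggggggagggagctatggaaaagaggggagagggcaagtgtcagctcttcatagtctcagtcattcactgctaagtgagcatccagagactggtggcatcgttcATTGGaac
Far2, chr6:148047166-148047465, plus strand: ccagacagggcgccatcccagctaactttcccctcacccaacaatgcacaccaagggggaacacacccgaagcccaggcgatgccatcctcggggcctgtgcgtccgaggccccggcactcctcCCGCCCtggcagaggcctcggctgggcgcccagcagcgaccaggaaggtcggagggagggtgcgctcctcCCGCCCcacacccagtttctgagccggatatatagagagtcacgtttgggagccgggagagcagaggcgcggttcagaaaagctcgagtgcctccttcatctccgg
Fasn, chr11:120824498-120824797, minus strand: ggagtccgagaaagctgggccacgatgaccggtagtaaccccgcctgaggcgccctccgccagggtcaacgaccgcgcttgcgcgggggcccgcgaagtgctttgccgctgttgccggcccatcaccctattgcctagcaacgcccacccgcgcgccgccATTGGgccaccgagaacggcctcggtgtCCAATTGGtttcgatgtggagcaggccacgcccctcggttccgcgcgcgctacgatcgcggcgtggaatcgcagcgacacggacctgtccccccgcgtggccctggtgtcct
Soat1, chr1:156474279-156474578, minus strand: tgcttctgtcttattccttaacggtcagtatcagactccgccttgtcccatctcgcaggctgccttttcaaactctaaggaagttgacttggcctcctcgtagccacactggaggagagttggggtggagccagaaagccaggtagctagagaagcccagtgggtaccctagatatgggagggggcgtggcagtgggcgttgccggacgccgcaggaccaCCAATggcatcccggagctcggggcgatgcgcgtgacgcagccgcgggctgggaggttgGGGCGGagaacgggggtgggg

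Both strands of the 7 windows were searched for 6 motifs: CCAAT, TCACNCCAC (the sterol response element), CACGTG, the direct repeat 1 of nuclear receptors, GGGCGG and TATAAA. Positions are those of a motif's leftmost base as printed, with the start site as 1 and no position 0. Fasn held CCAAT at -90, -62 and -59, the last pair sharing bases on opposite strands. Soat1 held CCAAT at -30 and GGGCGG at 30, Far2 held GGGCGG at -126 and -56, and Awat1 held CCAAT at 43, past its start site. One Awat2 window held CCAAT at -85, and the other held CCAAT at -121 and GGGCGG at -70. These motifs are common: CCAAT was in 37.4% and GGGCGG in 35.7% of the 32841 windows of the table. The Scd3 window held none of the 6, and TCACNCCAC (1.24% of all windows), CACGTG (7.15%), direct repeat 1 (0.0396%) and TATAAA (13.6%) were in none of the 7. A match is a description of the letters, and its absence says only that those letters are not in the window.

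Per kilobase of exon, levels in control skin spanned a wide range. Scd1 was the most abundant at 350 ± 44.6 RPKM (SD, n = 3), followed by Fasn at 49.0 ± 5.27 RPKM. Elovl3 (29.4 ± 8.2 RPKM) and Far2 (28.8 ± 1.36 RPKM) came next and did not differ beyond their spread. Soat1, Dgat2, Scd3 and Awat1 lay between 12.2 and 19.7 RPKM, each overlapping its neighbour in that order, while the control libraries of Soat1 (16.2 to 23.7 RPKM) all lay above those of Awat1 (10.2 to 13.7 RPKM). Mc5r followed at 6.27 ± 1.08 RPKM, and Awat2 was lowest at 2.95 ± 0.905 RPKM. The wax synthases thus differed in level, with Awat1 at 12.2 ± 1.77 RPKM.

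The order of the 5 group means was also given for each gene. Control had the highest mean for 7 genes (Awat2, Scd1, Scd3, Mc5r, Far2, Soat1 and Fasn), CEES for Awat1 and Elovl3, and SNX-5422+CEES for Dgat2. PAO or SNX-5422+CEES had the lowest mean for 9 genes. Dgat2 was the exception, lowest in SNX-5422+PAO at 24.0 ± 4.27 CPM beside 25.8 ± 1.73 CPM in PAO, a pair that did not differ beyond its spread.

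**Figure D1:**
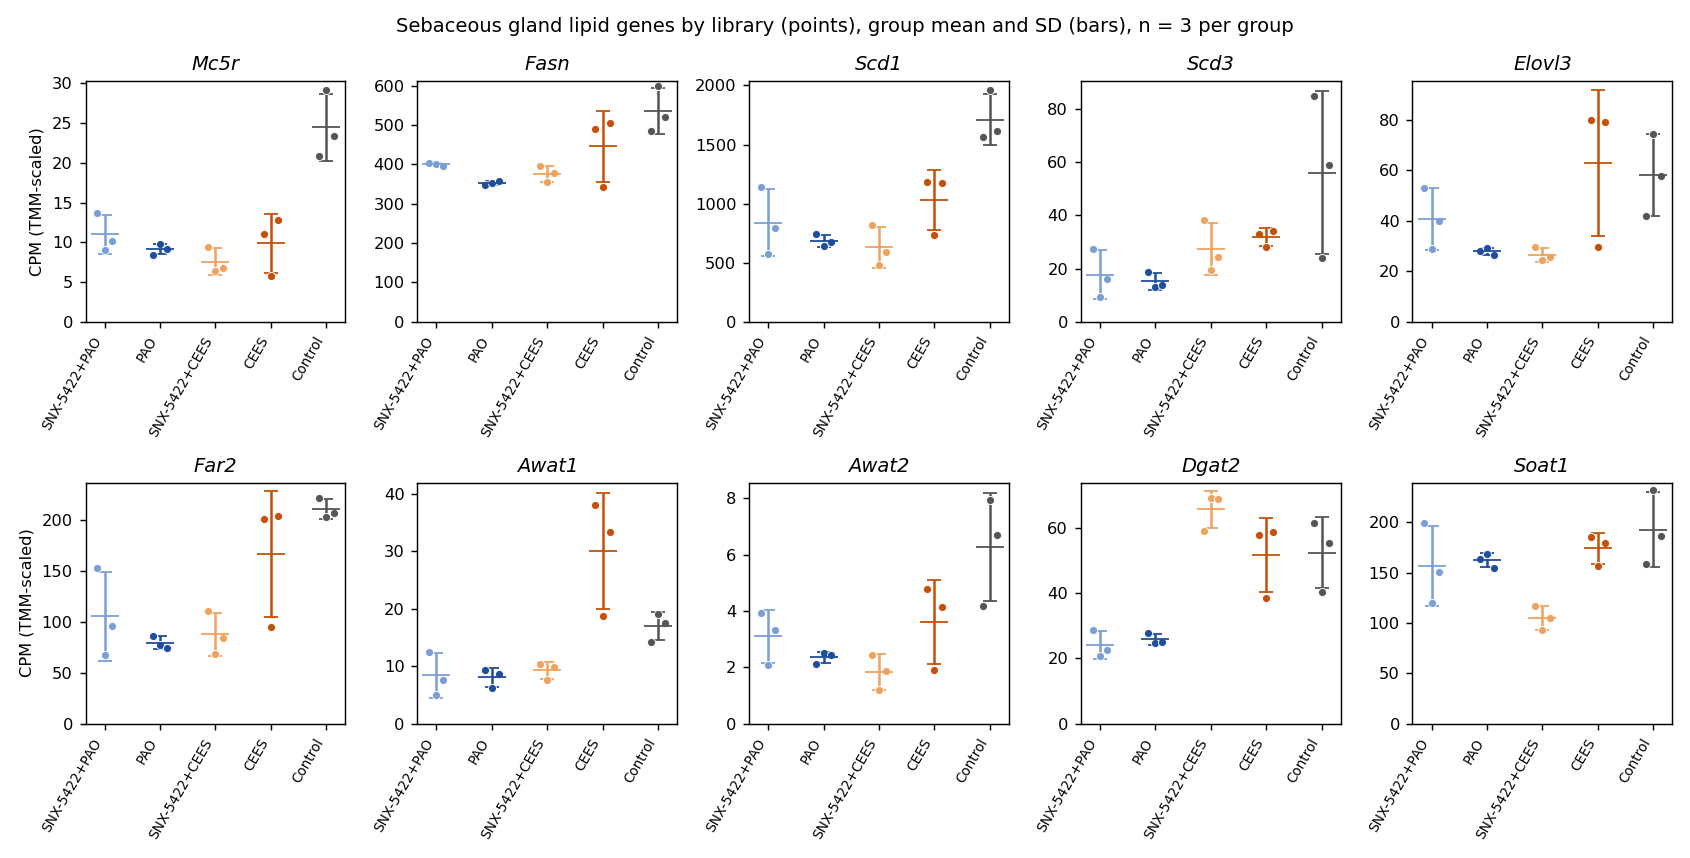
CPM on TMM-scaled libraries (y axes, each from 0) of the 10 genes in each library (points) with group mean and SD (lines), by group along the x axis. The 3 PAO libraries lie below the 3 control libraries for every gene but Soat1, and the lowest CEES point is CEES 2 in every panel.

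PAO was set against vehicle to ask what the arsenical did to the gland's lipid genes. Of the 10, 9 fell and none rose, while of all genes tested 20.4% were called in either direction and 8.58% lower, and for those 9 every PAO library lay below every control library, as for 17.2% of all genes. The median log2 fold change of the 10 was -1.19, beside -0.0040 over all genes tested. In whole skin, fewer sebocytes and less RNA per sebocyte cannot be told apart.

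Mc5r, the receptor of the list, had 8.45, 9.81 and 9.21 CPM in PAO libraries 1 to 3, against 20.9, 29.1 and 23.4 CPM in control libraries. All PAO libraries were below all control libraries, and the log2 fold change was -1.42 ± 0.24 (SE; 95% interval -1.93 to -0.91; edgeR quasi-likelihood adjusted p = 0.000646). Fasn, the synthase at the head of the pathway, had 347, 352 and 358 CPM in PAO libraries and 486, 599 and 522 CPM in control libraries. It had the smallest of the 9 falls, a log2 fold change of -0.60 ± 0.12 (adjusted p = 0.00188).

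Both desaturases fell. Scd1 had 741, 645 and 673 CPM in PAO libraries, against 1562, 1962 and 1612 CPM in control libraries, so its mean stood at 40.1% of control (log2 fold change -1.32 ± 0.23, adjusted p = 0.000835). Scd3 had 18.8, 13.1 and 13.8 CPM in PAO libraries and 84.9, 24.0 and 59.0 CPM in control libraries. The control libraries were wide apart for Scd3, with Control 2 nearest the PAO values, and the log2 fold change of -1.87 had the widest 95% interval of the 10, from -2.71 to -1.03 (adjusted p = 0.00323). Of 50-base windows along the exons, 4.56% in Scd1 and 6.57% in Scd3 also occur in other genes, mainly each other and Scd2, so reads there are uncertain.

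Elovl3, the elongase, had 28.2, 29.2 and 26.5 CPM in PAO libraries, against 42.1, 74.5 and 57.8 CPM in control libraries (log2 fold change -1.06 ± 0.30, adjusted p = 0.0196). Far2, the reductase that makes fatty alcohols, had 86.2, 77.1 and 74.0 CPM in PAO libraries and 222, 203 and 207 CPM in control libraries. The control libraries agreed closely for Far2, and its mean after PAO was 37.6% of theirs (log2 fold change -1.41 ± 0.28, adjusted p = 0.00184). Exons of Ergic2 and Far2os2 overlap Far2 on the other strand, and no source used here gives the strand setting of the counting, which makes its counts uncertain to that extent.

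Both wax synthases fell as well. Awat1 had 9.28, 6.16 and 8.66 CPM in PAO libraries, against 14.2, 19.1 and 17.5 CPM in control libraries (log2 fold change -1.07 ± 0.29, adjusted p = 0.0154). Awat2 had 2.11, 2.5 and 2.43 CPM in PAO libraries and 4.17, 7.95 and 6.71 CPM in control libraries (log2 fold change -1.42 ± 0.35, adjusted p = 0.00790). Among the esterifying enzymes of the other lipid classes, Dgat2 had 27.8, 24.8 and 25.0 CPM in PAO libraries and 61.5, 40.2 and 55.4 CPM in control libraries (log2 fold change -1.02 ± 0.17, adjusted p = 0.000620). Soat1 was the member that was not called: it had 164, 168 and 155 CPM in PAO libraries against 159, 232 and 187 CPM in control libraries, groups that overlapped (log2 fold change -0.25, 95% interval -0.58 to 0.09, adjusted p = 0.295).

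Mitochondrial ribosomal RNA held 9.69 to 17.7% of gene counts in PAO libraries, against 6.63 to 8.23% in control libraries. With that share as a covariate 1 of the 9 falls was still called, Mc5r (log2 fold change -1.16, adjusted p = 0.0374, the highest of its 24 alternatives, whose lowest was 5.1e-09); the other 8 were still negative, at -0.27 (Awat1) to -1.07 (Awat2) in log2, with adjusted p of 0.0539 to 0.590. Calls over all genes were 3181 with the covariate and 4607 without it. Elovl3 lost its call without Control 2, PAO 1 or PAO 3 (adjusted p 0.0601 to 0.0741) and Awat1 without PAO 2 (adjusted p = 0.0567).

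After CEES 3 of the 10 genes were called, a share near that of all genes. Mc5r and Scd1 fell, Awat1 rose, and 7 were not called, against 33.9% of all genes called, 16.2% lower and 17.8% higher. The median log2 fold change of the 10 was -0.30, beside -0.036 over all genes tested. The comparison shares its control libraries with that of PAO.

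Mc5r had 11.1, 5.75 and 12.8 CPM in CEES libraries 1 to 3, all below the lowest control library at 20.9 CPM. Its log2 fold change was -1.31 ± 0.24 (adjusted p = 0.000482), and it was called lower under all 24 alternatives. Scd1 had 1179, 737 and 1173 CPM in CEES libraries, also below every control library (1562 to 1962 CPM), with a log2 fold change of -0.73 ± 0.23 (adjusted p = 0.0212). Every library was lower in CEES than in control for these 2 genes and for 24.0% of all genes. Without CEES 2 the Scd1 change was -0.54 (adjusted p = 0.0981, the highest of its alternatives, whose lowest was 2.27e-05), and it was not called without Control 2 (adjusted p = 0.0827) or with total-count scaling (adjusted p = 0.0656).

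Awat1 moved the other way. It had 38.1, 18.6 and 33.3 CPM in CEES libraries, against 14.2, 19.1 and 17.5 CPM in control libraries, with a log2 fold change of 0.82 (95% interval 0.24 to 1.41, adjusted p = 0.0291). CEES 2 lay within the control range and the other CEES libraries above it, so the groups overlapped. Without CEES 2 the change was 1.08 in log2 and still called, while it was not called without CEES 1, CEES 3, Control 1 or Control 3 (adjusted p 0.0680 to 0.139; lowest over all its alternatives 0.00034).

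The 7 genes that were not called differed in their values. Awat2 had 4.76, 1.92 and 4.15 CPM in CEES libraries, against 4.17, 7.95 and 6.71 CPM in control libraries (log2 fold change -0.81 ± 0.33, adjusted p = 0.0687). Scd3 had 33.1, 27.9 and 34.2 CPM in CEES libraries, within the wide control range of 24.0 to 84.9 CPM (log2 fold change -0.82, adjusted p = 0.108). Elovl3 had 80.2, 29.6 and 79.4 CPM in CEES libraries, on either side of the control range of 42.1 to 74.5 CPM (log2 fold change 0.12, 95% interval -0.50 to 0.73). Far2 had 200, 95.2 and 204 CPM in CEES libraries, so CEES 1 and CEES 3 lay next to the control range of 203 to 222 CPM and CEES 2 well below it (log2 fold change -0.34, adjusted p = 0.362).

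Fasn had 491, 342 and 506 CPM after CEES (log2 fold change -0.26, adjusted p = 0.0973), and Soat1 had 185, 157 and 180 CPM (log2 fold change -0.15, adjusted p = 0.506). Dgat2 had 57.7, 38.5 and 58.8 CPM in CEES libraries beside 61.5, 40.2 and 55.4 CPM in control libraries. Its log2 fold change of -0.02 had a 95% interval of -0.38 to 0.34, which a total-count scaling turned to 0.09. For Fasn, Soat1 and Dgat2 the CEES and control libraries overlapped.

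**Figure D2:**
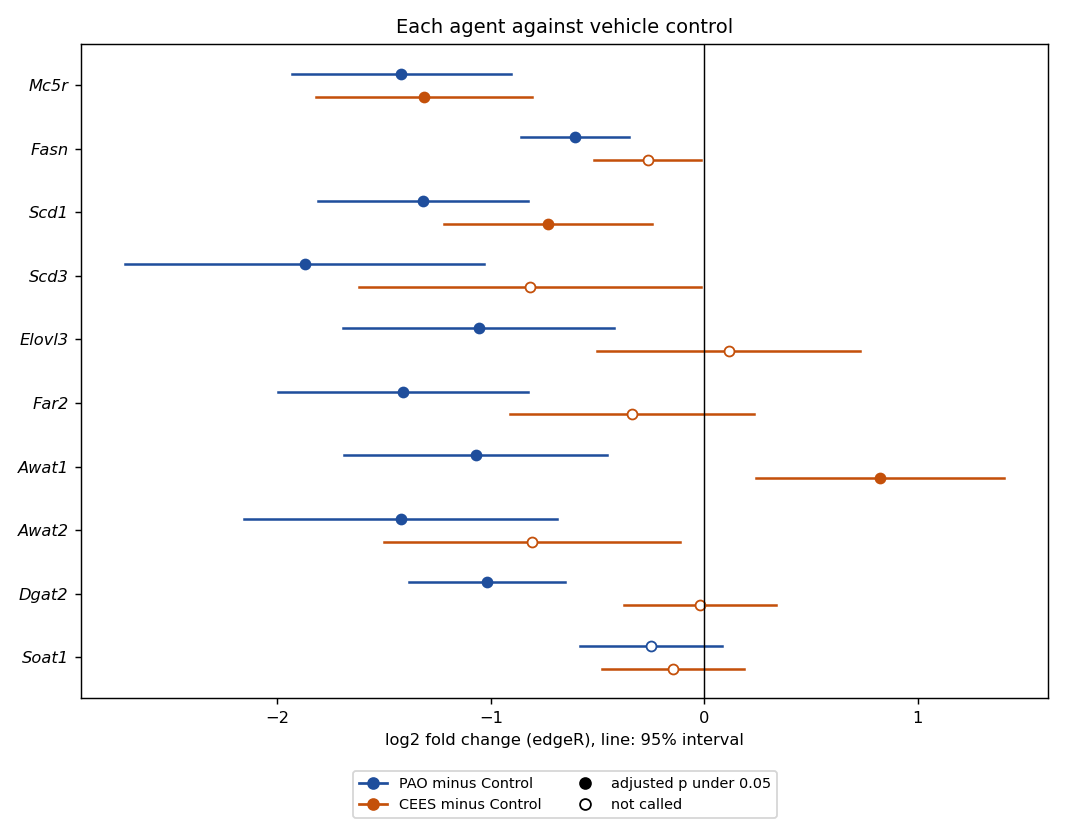
Log2 fold changes (x axis) with 95% intervals of the 10 genes (y axis) for PAO minus Control and CEES minus Control; filled points are called at an adjusted p under 0.05. The 9 filled PAO points lie left of 0, and the filled CEES points are Mc5r at -1.31 and Scd1 at -0.73 to the left and Awat1 at 0.82 to the right.

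CEES was next set against PAO directly, which asks whether the agents differed at the doses used. Awat1, Elovl3, Far2 and Dgat2 were higher after CEES than after PAO (4 of 10, against 9.86% of all genes), and none was lower, against 9.02%. The difference was 1.90 ± 0.29 in log2 for Awat1 (adjusted p = 0.000334), 1.17 ± 0.30 for Elovl3 (adjusted p = 0.0118), 1.07 ± 0.28 for Far2 (adjusted p = 0.0120) and 1.00 ± 0.17 for Dgat2 (adjusted p = 0.000825). Every CEES library lay above every PAO library for 5 of the 10 genes, as for 18.3% of all genes, and the median log2 difference was 0.81, beside -0.0096 over all genes.

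Mc5r and Soat1 showed the smallest differences between the agents, 0.11 (95% interval -0.41 to 0.63) and 0.10 (-0.23 to 0.43) in log2. Scd1 (0.58, adjusted p = 0.0898), Scd3 (1.06, adjusted p = 0.0739), Fasn (0.34, adjusted p = 0.0562) and Awat2 (0.62, adjusted p = 0.251) were not called. With the mitochondrial ribosomal RNA share as a covariate none of the 10 was called, Awat1 being nearest with a difference of 1.04 (adjusted p = 0.0573, the highest of its alternatives, whose lowest was 2.7e-12); without CEES 1 or CEES 3 Elovl3 and Far2 were not called (adjusted p 0.0530 to 0.0590), nor was Far2 without PAO 3 (adjusted p = 0.0501). This share was 5.72 to 9.43% in CEES libraries and 9.69 to 17.7% in PAO libraries, and calls over all genes were 1382 with the covariate and 4255 without it. Without CEES 2 the number of the 10 called was 6, and without SNX-5422+PAO 1 it was 7. Calls over all genes were 3285 and 4346 in these 2 fits.

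SNX-5422 was given after each agent to ask whether inhibition of HSP90 changed the response. After PAO none of the 10 genes was called in either direction, against 5.96% of all genes called, 3.39% lower and 2.57% higher, none reached an unadjusted p under 0.05, and DESeq2 called none. The log2 fold changes against PAO ran from -0.11 for Dgat2 to 0.54 for Elovl3, with a median of 0.24 beside -0.0090 over all genes. Each gene's 95% interval held 0, so changes within a gene's own interval could not be resolved. The lowest end was -0.64 (Scd3) and the highest 1.18 (Elovl3), while the interval of Fasn was -0.07 to 0.44.

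The SNX-5422+PAO libraries were spread more widely than the PAO libraries for every gene but Fasn. Far2 had 153, 66.9 and 96.2 CPM in SNX-5422+PAO libraries 1 to 3, against 86.2, 77.1 and 74.0 CPM in PAO libraries (log2 fold change 0.41, adjusted p = 0.445). Elovl3 had 53.2, 28.7 and 40.1 CPM against 28.2, 29.2 and 26.5 CPM in PAO libraries (log2 fold change 0.54 ± 0.30, adjusted p = 0.344). SNX-5422+PAO 1 gave the highest value and SNX-5422+PAO 2 the lowest for both genes. Scd1 had 1138, 575 and 796 CPM against 741, 645 and 673 CPM in PAO libraries, with the PAO libraries inside the range of the others. Fasn was the gene whose groups did not overlap, with 405, 400 and 396 CPM in SNX-5422+PAO libraries and 347, 352 and 358 CPM in PAO libraries (log2 fold change 0.18, adjusted p = 0.429), as for 11.7% of all genes. Without SNX-5422+PAO 1, the changes of Awat1, Scd1 and Scd3 turned from positive to negative, at -0.38, -0.01 and -0.27, and no gene was called.

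After CEES, Awat1, Elovl3 and Soat1 fell with SNX-5422 (3 of 10, against 3.46% of all genes), and none rose, against 3.54%. Awat1 had 10.3, 7.51 and 9.89 CPM in SNX-5422+CEES libraries 1 to 3, against 38.1, 18.6 and 33.3 CPM in CEES libraries. Every SNX-5422+CEES library lay below every CEES library, as for 12.8% of all genes. The log2 fold change of -1.70 ± 0.28 (95% interval -2.30 to -1.10, adjusted p = 0.00235) was the largest of the 10, and it was called under all 23 alternatives.

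Elovl3 had 29.8, 24.5 and 25.7 CPM in SNX-5422+CEES libraries and 80.2, 29.6 and 79.4 CPM in CEES libraries (log2 fold change -1.24 ± 0.30, adjusted p = 0.0187). CEES 2 lay within the range of the SNX-5422+CEES libraries, so the groups overlapped. Elovl3 was not called without CEES 1 or CEES 3, nor without SNX-5422+CEES 2 or 3 (adjusted p 0.0744 to 0.0884, lowest over its alternatives 1.41e-07). Soat1, the cholesterol esterifying enzyme, had 117, 92.6 and 105 CPM in SNX-5422+CEES libraries, all below the CEES libraries at 185, 157 and 180 CPM (log2 fold change -0.73 ± 0.16, adjusted p = 0.0104); without SNX-5422+CEES 2 it was not called (adjusted p = 0.0532, its highest; lowest 2.49e-06).

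Of the 7 genes not called after CEES and SNX-5422, 6 had negative log2 fold changes. Far2 had 111, 68.5 and 83.8 CPM in SNX-5422+CEES libraries against 200, 95.2 and 204 CPM in CEES libraries (-0.92 ± 0.27, adjusted p = 0.0527). Scd1 had 820, 479 and 593 CPM against 1179, 737 and 1173 CPM (-0.71 ± 0.23, adjusted p = 0.0801). Awat2 had 2.43, 1.17 and 1.86 CPM against 4.76, 1.92 and 4.15 CPM in CEES libraries (-0.98 ± 0.35, adjusted p = 0.113). In all 3 genes the overlap lay between SNX-5422+CEES 1, the highest of its group, and CEES 2, the lowest of its group.

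The number of genes called depended on single libraries. It was 1 without SNX-5422+CEES 2, 5 without SNX-5422+CEES 1, SNX-5422+PAO 1 or SNX-5422+PAO 2, and 7 without CEES 2, which added Awat2, Scd1, Far2 and Fasn (adjusted p 0.00866 to 0.0357). Calls over all genes were 1576 in the fit reported, 878 without SNX-5422+CEES 2 and 1002 without CEES 2. They were 1379 without SNX-5422+CEES 1, 1694 without SNX-5422+PAO 1 and 1578 without SNX-5422+PAO 2. Dgat2 was the 1 gene of the 10 with a positive log2 fold change, 0.35 (95% interval -0.01 to 0.70), which was not called (adjusted p = 0.269). It had 59.2, 69.0 and 68.7 CPM in SNX-5422+CEES libraries, against 57.7, 38.5 and 58.8 CPM in CEES libraries. Every SNX-5422+CEES library lay above every CEES library, as for 13.1% of all genes. The remaining genes, Mc5r (-0.38), Fasn (-0.25) and Scd3 (-0.22), were not called either. The median log2 fold change of the 10 was -0.72, beside 0.011 over all genes.

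**Figure D3:**
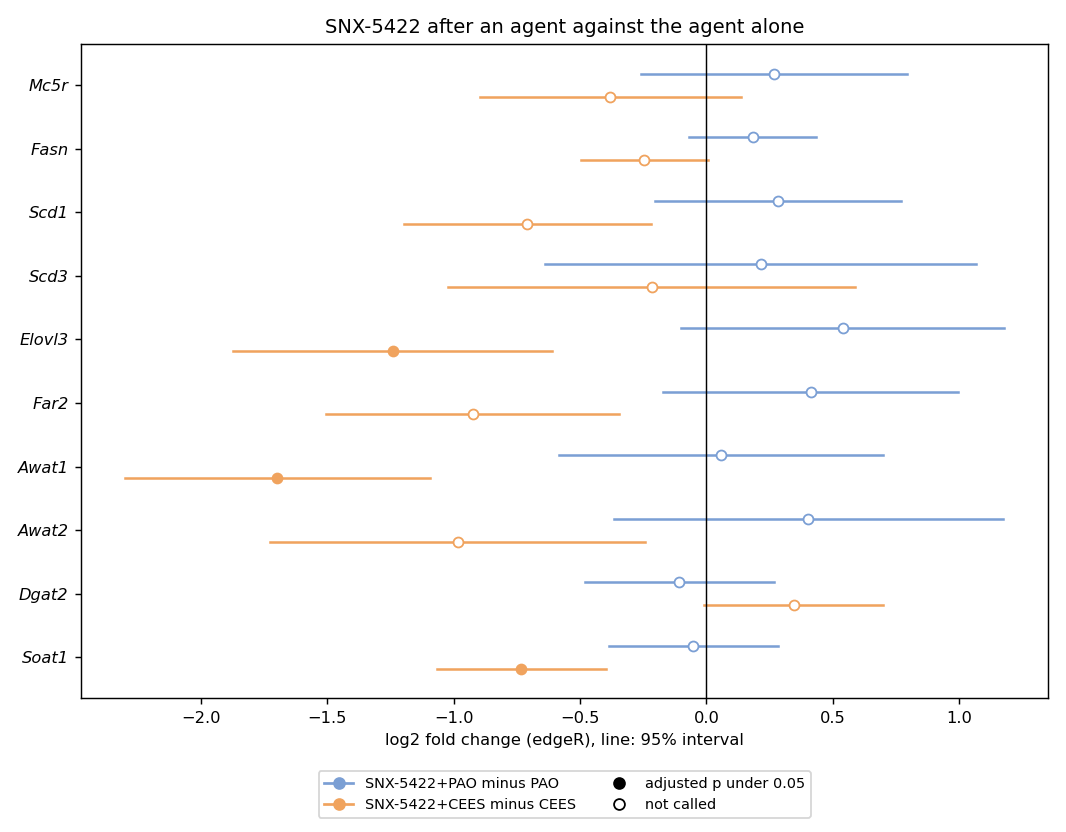
Log2 fold changes (x axis) with 95% intervals of the 10 genes (y axis) for SNX-5422+PAO minus PAO and SNX-5422+CEES minus CEES; filled points are called at an adjusted p under 0.05. The filled points are Awat1, Elovl3 and Soat1 after CEES, and no PAO point is filled.

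The difference between the SNX-5422 effects after the 2 agents was tested in the same fit. No gene of the 10 was called by edgeR, against 0.186% of all genes lower and 0.550% higher, although 7 had an unadjusted p under 0.05 and DESeq2 called 2. Awat1 (difference -1.75 ± 0.41 in log2, adjusted p = 0.0605) and Elovl3 (-1.78 ± 0.42, adjusted p = 0.0623) were nearest to the threshold. Without CEES 2, Awat1, Elovl3, Far2 and Fasn were called (adjusted p 0.00344 to 0.0231). Calls over all genes were 283 without CEES 2 and 166 with it.

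Against vehicle, both SNX-5422 groups had 8 of the 10 genes lower. In SNX-5422+PAO these were all but Elovl3 and Soat1 (8.66% of all genes were called lower), 7 of the 10 had every library below every control library (16.3% of all genes), and the log2 fold changes ran from -1.66 for Scd3 to -0.30 for Soat1. Scd1 had a change of -1.03 ± 0.23 (adjusted p = 0.00574) and Dgat2 of -1.13 ± 0.17 (adjusted p = 0.000420). Mitochondrial ribosomal RNA made up 12.3 to 17.4% of that group's gene counts, and with its share as a covariate none of the 10 was called, at log2 changes from -0.83 (Mc5r) to 0.04 (Awat1), while calls over all genes were 1443 with it and 4353 without it. Without the covariate, the number of the 10 called was 9 without SNX-5422+PAO 1, 4 without SNX-5422+PAO 3 and 5 without SNX-5422+PAO 2, Control 2 or Control 3. Calls over all genes were 2888, 2797, 3501, 5013 and 2427 in that order.

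In SNX-5422+CEES the 8 were all but Scd3 and Dgat2 (22.3% of all genes were called, 9.25% lower). Awat2 had the largest fall, -1.79 ± 0.34 in log2 (adjusted p = 0.00149), followed by Mc5r at -1.69 ± 0.24 (adjusted p = 0.000138) and Scd1 at -1.44 ± 0.23 (adjusted p = 0.000381). Awat1, which was higher than control after CEES alone, was lower than control after CEES and SNX-5422 (-0.87 ± 0.28, adjusted p = 0.0361), a call that was lost with total-count scaling (adjusted p = 0.0510) and without Control 2, Control 3 or SNX-5422+CEES 2 or 3 (adjusted p 0.0796 to 0.140; lowest over its alternatives 0.000434). Dgat2 had 59.2 to 69.0 CPM against 40.2 to 61.5 CPM in control libraries (0.33, adjusted p = 0.181).

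Ratios of counts within a library do not depend on scaling between libraries. The ratio of Awat1 to Awat2 was 5.32 ± 1.07 in SNX-5422+CEES libraries and 8.58 ± 0.99 in CEES libraries, against 2.80 ± 0.54 in control libraries (SD, n = 3 each). It was 7.99 to 9.72 over the CEES libraries, CEES 2 included, and 2.40 to 3.41 over the control libraries, so the ranges were apart. After PAO it was 2.62 ± 0.49 with SNX-5422 and 3.47 ± 0.97 without, ranges that overlapped the control range.

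Other ratios separated the groups as well. Dgat2 to Fasn was 0.149 to 0.195 in SNX-5422+CEES libraries against 0.113 to 0.117 in CEES libraries, and 0.0671 to 0.126 in control libraries. Soat1 to Scd1 was 0.221 to 0.261 in PAO libraries, against 0.102 to 0.118 in control libraries. It was 0.153 to 0.213 in CEES libraries, also above the control range. With 3 libraries a group an exact two-sided permutation test cannot go below 0.10, so these ratios are given without a test.

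**Figure D4:**
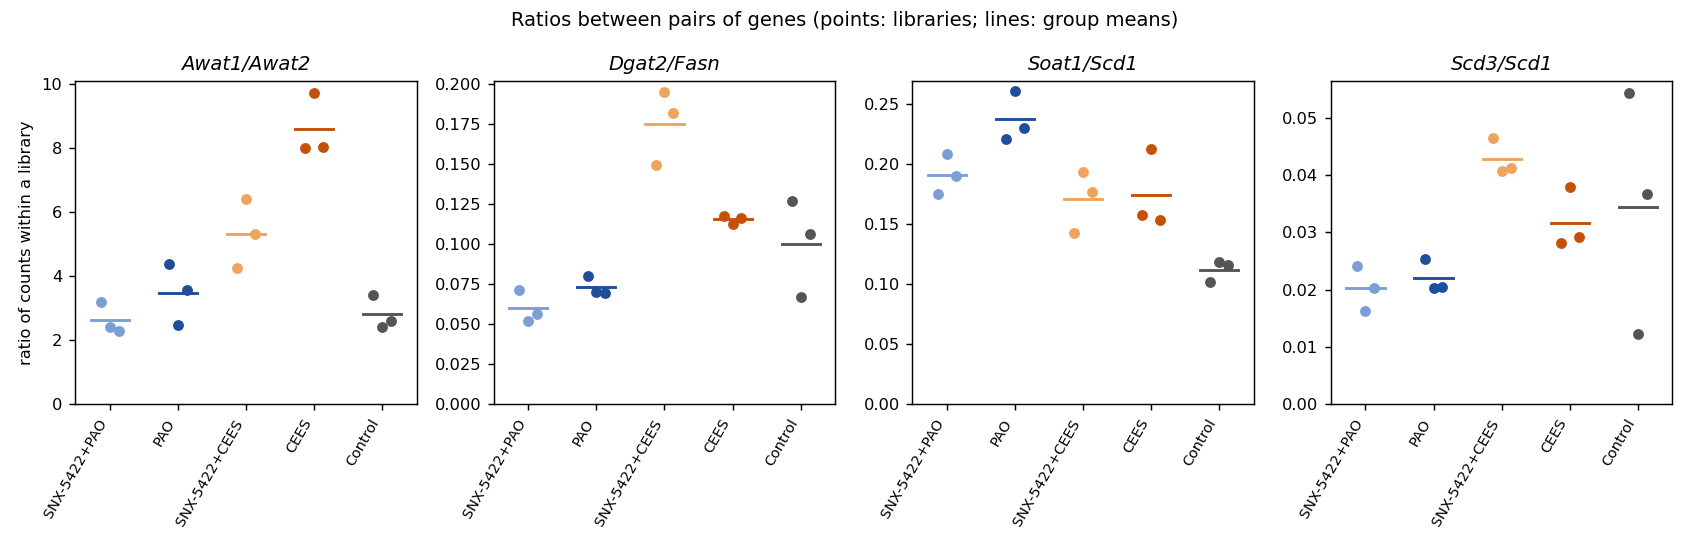
Ratio of counts within a library (y axes, each from 0) for 4 pairs of genes, by group along the x axis; points are libraries and lines are group means, n = 3. The Awat1 to Awat2 ratio is 7.99 to 9.72 in CEES libraries and 2.40 to 3.41 in control libraries.

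The 10 genes did not all follow a common pattern over the 15 libraries. Taking each gene's Pearson correlation with each of the other 9 in log2 CPM, the median was highest for Awat2 and Fasn (0.87 each) and lowest for Scd3 (0.55) and Dgat2 (0.26). After each group's mean was subtracted, the median was 0.86 for Scd1 and 0.20 for Scd3. The points share libraries, tissue pieces and scaling, so these values are descriptions.

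By the same measure the genes of the table with the pattern most like the mean of the 10 were Rarres1 (r = 0.99), Panx3 (0.98), Cyp3a57 (0.96), Secisbp2l (0.96), Cyp51 (0.96), Msmo1 (0.95), Hacd2 (0.95) and Cdr2 (0.95), out of 14070 genes averaging 1 CPM or more. Rarres1 had 30.3 ± 13.0 CPM in SNX-5422+PAO, 26.0 ± 1.28 CPM in PAO, 28 ± 4.70 CPM in SNX-5422+CEES and 68.6 ± 32.1 CPM in CEES, against 81.6 ± 5.11 CPM in control libraries (SD, n = 3 each). The nearest gene was Ces4a for Awat1, Cers4 for Awat2, Fa2h for Scd1, Pck1 for Scd3, Elovl6 for Mc5r, Rarres1 for Far2, Pctp for Soat1 and Acat2 for Fasn (r = 0.92 to 0.99). For Dgat2 the nearest were Dmkn and Hrnr (r = 0.98 each), genes of the upper epidermis.

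**Figure D5:**
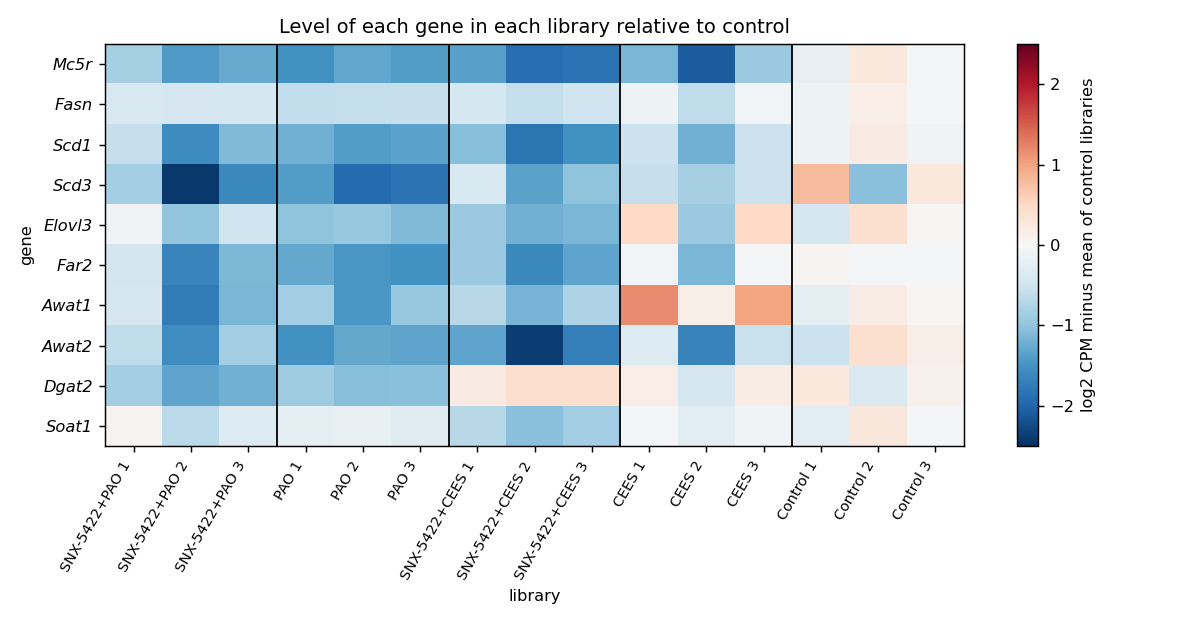
Log2 CPM of the 10 genes (rows) in each library (columns) minus the mean of the control libraries; blue is below control and red above. CEES 1 and CEES 3 are above control in Awat1 (1.18 and 0.99) and Elovl3 (0.50 and 0.49), CEES 2 is at 0.15 and -0.94, and the Dgat2 row is red in SNX-5422+CEES libraries (0.20 to 0.42).

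Other genes of sebocytes moved in part with the 10. Of 12 listed, 6 fell and 2 rose after PAO (all genes: 8.58% lower, 11.9% higher), and 5 fell and 1 rose after CEES (all genes: 16.2% lower, 17.8% higher). Gata6, a transcription factor of the sebaceous duct, fell after PAO (log2 fold change -1.43 ± 0.28, adjusted p = 0.00192). Plin2, a coat protein of lipid droplets, rose after both agents, by 0.74 ± 0.12 in log2 after PAO (adjusted p = 0.000471) and by 0.79 ± 0.12 after CEES (adjusted p = 0.000105). Pparg, the nuclear receptor that drives sebocyte differentiation, was at 10.7 ± 1.69 CPM in PAO libraries against 18.1 ± 1.29 CPM in control libraries (-0.77 ± 0.21, adjusted p = 0.0152) and was higher after CEES than after PAO (0.94 ± 0.21, adjusted p = 0.00447). With SNX-5422, 4 of the 12 fell after CEES (3.46% of all genes), Plin2 among them (-1.10 ± 0.12, adjusted p = 0.000214). After PAO 1 of the 12, Prdm1, fell (3.39% of all genes) with SNX-5422 (-0.67 ± 0.19, adjusted p = 0.0437).

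Of 19 further genes of fatty acid synthesis and elongation, 12 fell after PAO (8.58% of all genes) and 7 after CEES (16.2% of all genes), and none rose. Elovl6, which lengthens palmitate, was at 173 ± 6.43 CPM after PAO and 205 ± 80.9 CPM after CEES, against 613 ± 195 CPM in control libraries (log2 fold changes -1.82 ± 0.29 and -1.58 ± 0.29, adjusted p = 0.000385 and 0.000511). Tecr, the last enzyme of the elongation cycle, fell by 0.80 in log2 after PAO and by 0.94 after CEES. With SNX-5422, Acsl1, an acyl-CoA synthetase, rose after PAO (0.61 ± 0.12, adjusted p = 0.00700) and after CEES (0.46 ± 0.12, adjusted p = 0.0286). It was the 1 gene of the 19 that rose in each (all genes: 2.57% after PAO, 3.54% after CEES). Hsd17b12 and Elovl4, both of elongation, were among 3 of the 19 that fell with SNX-5422 after CEES (-0.65 ± 0.15 and -1.02 ± 0.27, adjusted p = 0.0158 and 0.0302), as did 3.46% of all genes.

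Among 10 further genes of wax, acylglycerol and cholesteryl ester synthesis, 8 were tested. After CEES 5 rose and 1 fell (all genes: 17.8% higher, 16.2% lower), and after PAO 1 rose and 1 fell (all genes: 11.9% higher, 8.58% lower). Dgat2l6, a paralog of the wax synthases and of Dgat2, was at 4.63 ± 0.306 CPM in PAO libraries and 19.8 ± 6.20 CPM in CEES libraries, against 10.04 ± 0.529 CPM in control libraries. It fell after PAO (-1.12 ± 0.26, adjusted p = 0.00666) and rose after CEES (0.97 ± 0.25, adjusted p = 0.00564). Its difference between the agents was 2.09 ± 0.26 in log2 (adjusted p = 5.96e-05). With SNX-5422 after CEES it fell to 6.34 ± 0.941 CPM (-1.64 ± 0.25, adjusted p = 0.00153), and its SNX-5422 effect differed between the agents (-1.76 ± 0.37, adjusted p = 0.0399). Far1, the other fatty acyl-CoA reductase, rose after CEES (0.87 ± 0.11, adjusted p = 1.72e-05) and fell with SNX-5422 after it (-0.59 ± 0.11, adjusted p = 0.00429). Soat2, the other cholesterol acyltransferase, was at 1.70 ± 0.979 CPM after PAO and 7.33 ± 0.989 CPM after CEES, against 0.489 ± 0.181 CPM in control libraries (1.75 ± 0.53 and 3.84 ± 0.49, adjusted p = 0.0277 and 2.14e-05).

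Of 10 regulators of lipid synthesis, 5 fell and 1 rose after PAO (all genes: 8.58% lower, 11.9% higher), as after CEES (all genes: 16.2% lower, 17.8% higher). Insig1, a sterol-responsive retention factor, fell after PAO (-0.62 ± 0.13, adjusted p = 0.00293) and with SNX-5422 after CEES (-0.76 ± 0.13, adjusted p = 0.0025). Its SNX-5422 effect differed between the agents (-0.91 ± 0.18, adjusted p = 0.0316). Mlxipl, the carbohydrate-responsive transcription factor, fell after CEES (-1.18 ± 0.14, adjusted p = 7.71e-06) and rose with SNX-5422 after PAO (0.84 ± 0.13, adjusted p = 0.00212) and after CEES (0.91 ± 0.14, adjusted p = 0.00129).

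Markers of other cell types also changed, in some comparisons against the direction of the sebaceous gland lipid genes. Adipocyte genes, which share Fasn, Scd1 and Dgat2 with sebocytes, were lower in 5 and higher in 1 of 12 after PAO (all genes: 8.58% lower, 11.9% higher), and higher in 5 and lower in 1 of 12 after CEES (all genes: 17.8% higher, 16.2% lower). The summed level of the 12 was 0.117 to 0.12% of gene counts in PAO libraries and 0.113 to 0.124% in CEES libraries, against 0.157 to 0.170% in control libraries. Their median log2 fold change was -0.71 after PAO and 0.50 after CEES. After CEES the sum, in which abundant genes weigh most, and the median thus went in opposite directions. Adiponectin (Adipoq), which adipocytes secrete, was at 2.94 ± 1.49 CPM after PAO and 12.6 ± 3.29 CPM after CEES, against 8.83 ± 2.99 CPM in control libraries. Other genes of the list went the other way. Pnpla2 was the 1 called higher after PAO (log2 fold change 0.76 ± 0.12, edgeR adjusted p = 0.000348). Car3 was the 1 called lower after CEES (-1.34 ± 0.12, adjusted p = 8.80e-07). No marker of the list was at 0 in a whole group.

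Monocyte and macrophage genes were higher in 10 of 10 after either agent (all genes: 11.9% after PAO, 17.8% after CEES), summing to 0.0854 to 0.103% of gene counts in PAO libraries and 0.180 to 0.264% in CEES libraries, against 0.0371 to 0.0423% in control libraries. Keratinocyte genes fell in 8 of 12 after PAO (8.58% of all genes) and 7 of 12 after CEES (16.2%), and 6 of 12 rose with SNX-5422 after CEES (3.54%); their sums were 0.795 to 0.858% in PAO libraries, 1.21 to 1.41% in SNX-5422+CEES libraries and 0.832 to 1.20% in CEES libraries, against 1.21 to 1.35% in control libraries. Skeletal muscle genes fell in 10 of 12 after CEES (16.2% of all genes) and rose in 10 of 12 with SNX-5422 after CEES (3.54%), with sums of 6.04 to 7.76% in SNX-5422+CEES libraries, 3.25 to 3.81% in CEES libraries and 6.15 to 10.2% in control libraries. The part of these tissues in the results for the 10 genes was not tested. Leaving mitochondrial, muscle and pancreas genes out of the scaling and the fit left the number of the 10 called in each comparison as it was. That step bears on the scaling and cannot show whether the mix of cells in the skin changed.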

How the data were processed

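Per the labels' protocols, an Aurum kit was used to isolate total RNA from whole skin, and Ribo-Zero Gold removed ribosomal RNA. Per the submitters' processing notes, the tools were bcl2fastq 2.18.0.12, Trim Galore 0.6.7, STAR 2.7.10a and HTSeq 2.0.2, with build GRCm39. The authors deposited 1 table of whole-number read counts by gene for all 15 libraries. No source used here gives the annotation release or strand setting. Between 35.2 and 46.9% of a library had no feature and stayed out of library sizes and tests. SNX-5422+CEES titles all carry number 1, so these libraries were numbered in record order.

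Symbols came from GRCm38 tables, where 52093 of 53700 identifiers had one, as did the exon lengths for RPKM. Counts were fitted in edgeR 4.0.16 (R 4.3.3) by quasi-likelihood, all 15 libraries in 1 fit with a mean per group, TMM scaling (factors 0.820 to 1.19) and filterByExpr defaults. A call means an adjusted p (Benjamini-Hochberg, 22529 genes) under 0.05. Fold changes are log2; 95% intervals use the t distribution of the fit. DESeq2 1.42.0 was an alternative, beside other scalings, no filter, only the groups compared, a mitochondrial ribosomal RNA covariate, a replicate block, and each library left out. The script was tested on simulated counts. From each further list up to 2 raised and 2 lowered called genes with the smallest p are named; the other genes named, and the ratios shown, were chosen after their values were seen. Some results that these rules would name are not reported here. The 10 genes, the lists and the rules were chosen with earlier results of these data known. Reads carry no molecular identifiers, so they are not independent molecules.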

Additional observations from a re-analysis of the deposited data

Results flagged for a closer look

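Of the 10 genes, 4 differed between the agents in the direct test of CEES minus PAO, which is the difference between their effects against the shared control libraries. Awat1 differed by 1.90 in log2, Elovl3 by 1.17, Far2 by 1.07 and Dgat2 by 1.00, each higher after CEES. Awat1 was higher in 3 of 3 CEES libraries than in any PAO library, as were Elovl3, Far2 and Dgat2. None of the 4 was called with the mitochondrial ribosomal RNA share as a covariate. The agents were given at different doses, and their libraries carry different ranges of codes.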

How the results depend on the processing

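The number of the 10 genes called changed with the processing as follows. Falls with SNX-5422 after CEES, 3 in the fit reported, were 5 with DESeq2 or total-count scaling, 6 without a filter and 8 without CEES replicate 2 and SNX-5422+PAO replicate 1 (an alternative chosen after seeing the data); leaving out each library gave 1 to 7, with 1 without SNX-5422+CEES 2 and 5 without SNX-5422+CEES 1, SNX-5422+PAO 1 or SNX-5422+PAO 2. Differences between the SNX-5422 effects, 0 reported, were 2 with DESeq2, 5 without a filter, 1 with the mitochondrial covariate, 4 without that pair of libraries and 0 to 4 with each library left out; over all genes DESeq2 called 628 against 166. Falls after CEES, 2 reported, were 1 with total counts and 4 with upper-quartile scaling or without a filter (1 to 3 with each library left out), and its rise was 0 to 1. CEES against PAO, 4 reported as higher, was 9 with total counts, 7 without a filter, 0 with the mitochondrial covariate and 2 to 7 with each library left out. Falls after PAO, 9 reported, were 1 with that covariate and 8 to 9 with each library left out. For SNX-5422+PAO against control, 8 reported, the covariate gave 0 and single libraries left out 4 to 9; for SNX-5422+CEES against control they gave 6 to 9.

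Total-count scaling moved the median of all genes to -0.21 in log2 for PAO against control, -0.33 for SNX-5422+PAO against control, -0.14 for SNX-5422+PAO against PAO and 0.31 for CEES against PAO, and upper-quartile scaling to -0.11 for CEES against control, so its counts carry that shift. The cause of the other changes was not tested. Calls over all genes changed as well. For SNX-5422 after CEES they were 1576 in the fit reported, 2081 with DESeq2, 1787 with total counts and 2169 without a filter. For CEES against PAO they were 4255 in the fit reported, 7863 with total counts, 4437 without a filter and 1382 with the mitochondrial covariate. For CEES against control they were 7640 in the fit reported, 7458 with total counts, 8063 with upper-quartile scaling and 7585 without a filter. For the difference between the SNX-5422 effects they were 899 without a filter, 192 with that covariate and 461 without the pair of libraries. Without a filter 38750 genes were tested.

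Values that changed sign were of genes not called, except Awat1 in SNX-5422+PAO against control, 0.039 with the mitochondrial covariate. The same covariate gave 0.012 for Elovl3 in that comparison, 0.016 for Dgat2 in SNX-5422+PAO against PAO, and -0.17 for Mc5r and -0.10 for Soat1 in CEES against PAO (Mc5r -0.12 without CEES 3 and 0.38 without CEES 2 and SNX-5422+PAO 1). In CEES against control, Dgat2 was 0.091 with total counts, 0.11 without Control 1, 0.023 without Control 3 and 0.15 without CEES 2, alone or with SNX-5422+PAO 1, down to -0.16 without Control 2; Elovl3 was -0.070 without Control 1, -0.095 without CEES 1 and -0.084 without CEES 3, up to 0.46 without CEES 2; Soat1 was 0.028 without Control 2. In SNX-5422+PAO against PAO, Awat1 was -0.081 with total counts, -0.10 without PAO 2, -0.38 without SNX-5422+PAO 1 and -0.37 without that pair; Scd1 was -0.011 and -0.0017 and Scd3 -0.27 and -0.26 without the last 2; without SNX-5422+PAO 2 these 3 were 0.32, 0.49 and 0.52, and Soat1 was 0.11. Scd3's difference between the SNX-5422 effects was 0.032 without SNX-5422+PAO 1 and -0.76 without SNX-5422+PAO 2.

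Libraries with the same replicate number were correlated by -0.10 to 0.10, so the numbers were not taken as pairs. With the replicate block the calls were 9 lower after PAO, 2 lower and 1 higher after CEES, 0 for SNX-5422+PAO against PAO, 7 lower for SNX-5422+PAO against control and 5 higher for CEES against PAO. Calls over all genes in either direction were 4058, 7086, 1072, 3666 and 3697 of 21957 in that order. No block could be fitted with the SNX-5422+CEES libraries, which carry no numbers of their own.

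Depth limits Awat2 most, at 30 to 207 counts per library.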

Other observations

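Of 7 melanocortin receptors and partners, 6 were in the table and 3 passed the filter. Mc3r and Mc4r, the receptors of the brain, averaged 0.0569 and 0.0198 CPM at most in any group, far under Mc5r. Mrap, an accessory protein of melanocortin receptors, was at 1.71 ± 0.376 CPM in CEES libraries against 0.778 ± 0.331 CPM in control libraries and rose (log2 fold change 1.14 ± 0.39, edgeR adjusted p = 0.0325). Pomc, the precursor of the receptors' ligands, stayed at 0.261 CPM or less in every group mean and was not tested.

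Thermogenic genes were a further list, of which 4 of 5 were tested. With SNX-5422 after PAO 1 rose and 1 fell (all genes: 2.57% higher, 3.39% lower). After CEES against control 2 fell (16.2% of all genes). Ucp1, the uncoupling protein of brown fat, averaged at most 0.302 CPM in any group. Ppargc1a, a coactivator of mitochondrial genes, was at 35.8 ± 18.2 CPM in SNX-5422+PAO libraries against 11.4 ± 1.49 CPM in PAO libraries (1.65 ± 0.28, adjusted p = 0.00287), and fell after CEES against control (-1.36 ± 0.29, adjusted p = 0.00160). Dio2 was the 1 that fell with SNX-5422 after PAO (-0.55 ± 0.15, adjusted p = 0.0357).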
